A study of Mus musculus with 14 samples.

Results

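The p53, Mdm2 and arrest-type set is a list of 10 genes: Trp53, Mdm2, Mdm4, Ccng1, Sesn1, Zmat3, Trp53inp1, Gadd45a, Perp and Aen. They were taken by name from the RNA count tables, in which all 10 had a row among 24465 gene symbols, and by the symbol that the authors gave to each H3K27ac region, which tied 28 of 40772 regions to 9 of the genes. Perp had no region. The cells were Y1, a line from a mouse adrenocortical tumour that is widely used as a model of steroid-producing cortex. Both groups went through 48 h without serum and were then refed for 5 h. The tested cells received 10% fetal bovine serum plus 10 ng/ml of fibroblast growth factor 2 (FGF-2), a mitogen for many cell types, and the others received 10% fetal bovine serum alone, so both groups carried serum. RNA was sequenced in 3 libraries per group and DNA bound to histone H3 acetylated at lysine 27 (H3K27ac, a mark found at promoters and enhancers in use) in 2 libraries per group. The labels do not say whether libraries came from separate cultures, so p-values measure only the spread between these libraries.

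The transcription factor p53, encoded by Trp53, is held low in unstressed cells by Mdm2, a ubiquitin ligase that marks it for degradation, and by its relative Mdm4, which covers its activating domain. Mdm2 is itself a p53 target, so the pair forms a feedback loop. Many other targets slow the cell cycle, repair DNA or restrain growth signalling, and p53 is regulated to a large part through protein stability, which neither assay measured.

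RNA libraries held 6403095 to 12696426 counts in genes with FGF-2 and 5625004 to 9101089 with serum alone. H3K27ac libraries held 11840994 and 12447135 fragments with FGF-2 and 12856806 and 14156846 with serum alone. The share of fragments in the H3K27ac regions was 34.1% and 34.6% in FGF-2 libraries 1 and 2. It was 35.3% and 28.0% in serum libraries 1 and 2. Of 11 markers of adrenal cortex, Cyp21a1 and Nr0b1 had 0 counts in all 6 RNA libraries, and Mc2r, the ACTH receptor, had 4 counts over the FGF-2 libraries and 3 over the serum libraries. The summed level of the cortex markers was 2365 to 3857 CPM (counts per 1000000 after TMM scaling) with FGF-2 and 717.5 to 979.3 CPM with serum. Star, the cholesterol carrier of steroid synthesis, made most of that gap (1715 to 3162 CPM with FGF-2 and 97.0 to 281.2 CPM with serum), and the other cortex markers summed to 576 to 695 CPM with FGF-2 and 600.4 to 698 CPM with serum. Of the 7 cortex markers tested, 2 rose and 2 fell. Markers of fibroblasts and capsule summed to 2042 to 2916 CPM with FGF-2 and 2811 to 3510 CPM with serum, mostly from Col1a1, with Col1a2 and Dcn at 0. Col3a1 was next at 189.5 to 263 CPM with FGF-2 and 260 to 319 CPM with serum, and fell (edgeR adjusted p = 0.0281). Medulla markers summed to 2.03 to 3.62 CPM with FGF-2 and 5.55 to 7.13 CPM with serum (Th and Dbh at 0), and markers of endothelium and blood to 9.97 to 12.2 CPM with FGF-2 and 9.27 to 15.1 CPM with serum (Tek, Hbb-bs and Hba-a1 at 0). The part of other cell types in the results was not tested, and in bulk RNA fewer cells of a type cannot be told apart from less RNA per cell.

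RefSeq promoter windows (GRCm38.p6, 250 bases before to 50 after an annotated start) were at hand for 7 of the genes, 10 windows in all. The windows were searched on both strands for the p53 half-site consensus, which is 10 bases long, and for a pair of adjacent half-sites with at most 2 mismatches over 20 bases. An exact half-site lay in 7 of the 10 windows, whereas 8.36% of all 32851 windows in the table held one. The 2 Aen windows overlap and hold the same half-site, so the 7 windows hold 6 distinct sites. A full site was found in 1 of the 10, that of Ccng1, against 0.798% of all windows. Ccng1 had 1 mismatch in its pair, which ran from base -195 to base -176 relative to the start. The 250 bases before the Ccng1 start are shown because this is the one full site found in the 10 windows. Sequence outside the windows, and half-sites with bases between them, were not searched. They lie on the minus strand at chr11:40755287-40755536, and the capitals mark the full site:
Ccng1: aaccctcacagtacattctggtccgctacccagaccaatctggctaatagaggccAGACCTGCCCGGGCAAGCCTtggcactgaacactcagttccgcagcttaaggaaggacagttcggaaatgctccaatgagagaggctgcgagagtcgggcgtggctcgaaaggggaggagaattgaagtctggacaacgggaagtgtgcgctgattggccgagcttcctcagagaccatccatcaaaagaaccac

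For the genes with a lone half-site, 30 bases around it are shown so that the 5 matches can be set side by side, with the half-site in capitals. They lie at chr11:69580274-69580303 (plus strand) for Trp53, chr10:117710925-117710954 (minus) for Mdm2, chr10:41887256-41887285 (plus) for Sesn1, chr6:67037428-67037457 (minus) for Gadd45a and chr7:78895927-78895956 (plus) for Aen. The half-sites begin at bases -75 (Trp53), -186 (Mdm2), -173 (Sesn1, from its internal start), -40 (Gadd45a) and -121 (Aen, from the downstream one of its 2 starts).
Trp53: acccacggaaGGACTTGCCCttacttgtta
Mdm2: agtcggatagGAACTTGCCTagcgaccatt
Sesn1: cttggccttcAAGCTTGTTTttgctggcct
Gadd45a: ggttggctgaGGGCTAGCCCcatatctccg
Aen: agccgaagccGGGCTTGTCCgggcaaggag
Half-sites in the Trp53, Mdm2 and Aen windows were inside the H3K27ac region at the start of the gene. The Sesn1 half-site was inside another H3K27ac region tied to Sesn1 (chr10:41886880-41887276). These matches are descriptions of sequence only, and no p53 binding was measured.

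Among the 8 genes with enough counts to test, 1 rose (Mdm2) and 4 fell (Trp53, Sesn1, Zmat3 and Trp53inp1), while Mdm4, Ccng1 and Aen did not pass. Over all 10374 genes tested, 22.1% rose and 24.2% fell at an edgeR Benjamini-Hochberg adjusted p below 0.05, or 46.3% in either direction. The median log2 fold change (FGF-2 over serum) was -0.51 over the 8 genes and -0.02 over all tested genes. The groups did not overlap for the same 5 genes that passed, and over all tested genes 28.1% stood above the serum libraries in every FGF-2 library and 29.4% below. The authors' deposited table of the same RNA comparison gave adjusted p-values on the same side of 0.05 for these 8 genes, with log2 fold changes of -2.37 for Trp53inp1, -1.80 for Sesn1, -1.0 for Zmat3, -0.61 for Trp53 and 0.59 for Mdm2.

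**Figure D1:**
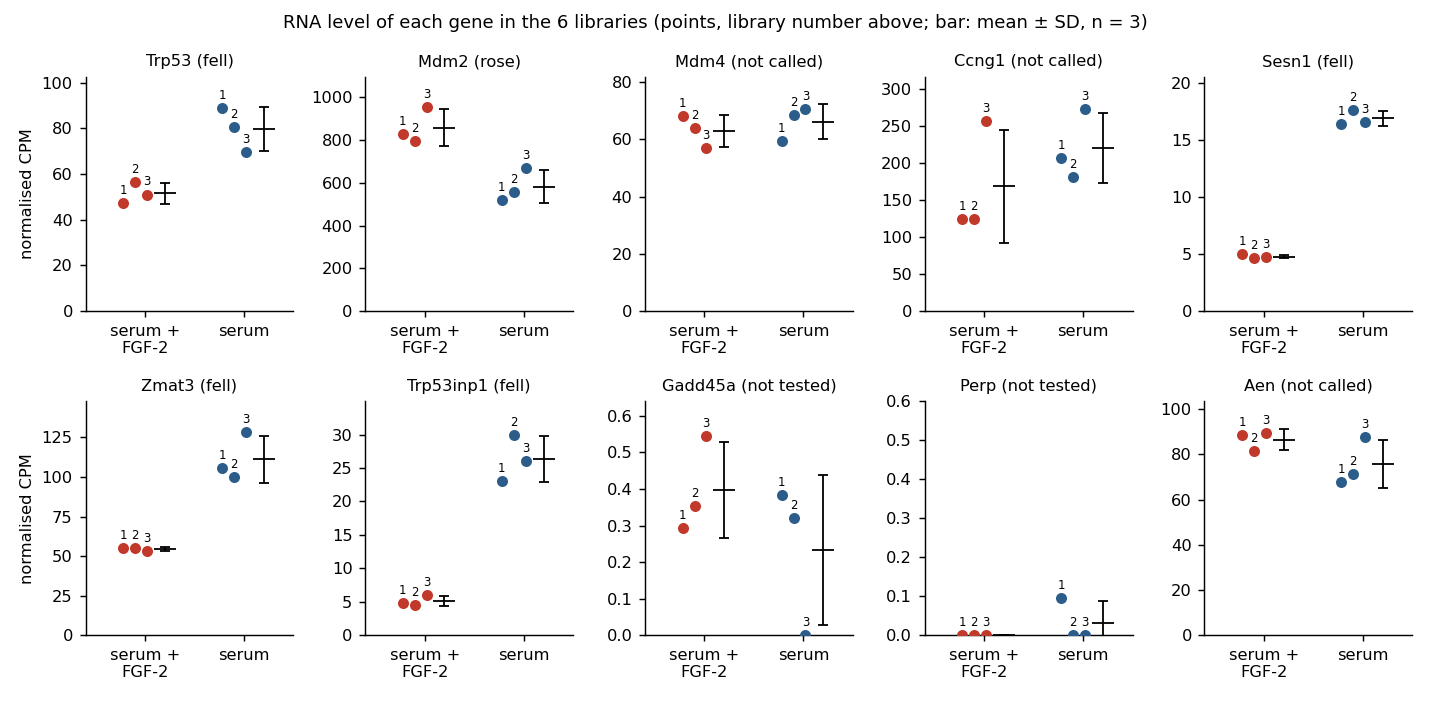
Normalised CPM (vertical axis, linear, from 0, its own range in each panel) of the 10 genes in the 3 libraries of serum plus FGF-2 (red, left) and the 3 of serum alone (blue, right), with the mean and SD as a black bar and the library number above each point. Points of the groups are apart for Trp53, Mdm2, Sesn1, Zmat3 and Trp53inp1, and FGF-2 library 3 stands at 257.5 CPM for Ccng1 where the other FGF-2 libraries stand at 124 and 125 CPM.

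Trp53 itself fell. Its level (entrez 22059, chr11:69580348-69591873) was 47.4, 56.4 and 51.1 CPM in FGF-2 libraries 1 to 3, against 88.9, 80.7 and 69.7 CPM in serum libraries 1 to 3. All FGF-2 libraries were below all serum libraries. The means were 51.6 ± 4.53 CPM with FGF-2 and 79.8 ± 9.63 CPM with serum (SD, n = 3 each), so the log2 fold change was -0.63 ± 0.12 (SE; edgeR Benjamini-Hochberg adjusted p = 0.00266). RefSeq also lists a Trp53 pseudogene, and how reads shared with it were counted is not given in the sources used here. The single H3K27ac region tied to Trp53 covers its start (chr11:69579559-69582777). Its signal, reads scaled by the authors to the smallest library, was 308 and 319 with FGF-2 and 493 and 365 with serum. Both FGF-2 libraries were below both serum libraries, but the difference did not pass (log2 difference -0.43 ± 0.24, limma Benjamini-Hochberg adjusted p = 0.242). It passed with TMM scaling of the regions (-0.57, limma adjusted p = 0.00675) but not with the replicate number as a block (limma adjusted p = 0.516). The log2 difference was -0.65 without serum library 2 and -0.22 without serum library 1.

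Mdm2, the ligase that opposes p53, was the one gene of the set that rose. Its level (chr10:117688875-117710758) was 827, 794 and 955 CPM in FGF-2 libraries 1 to 3, against 520, 556 and 668 CPM in serum libraries 1 to 3. The groups were apart, with the lowest FGF-2 library above the highest serum library. The means were 859 ± 85.0 CPM with FGF-2 and 581 ± 77.3 CPM with serum (SD, n = 3 each), so the log2 fold change was 0.56 ± 0.14, or 1.48-fold (edgeR Benjamini-Hochberg adjusted p = 0.00859). Scaled by library totals alone, which moved the median of all tested genes to -0.36, Mdm2 stood at 0.23 and missed the threshold (edgeR adjusted p = 0.151). In TMM scaling 84.9% of tested genes had a lower log2 fold change than Mdm2.

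Mdm2 also had the most H3K27ac regions of the set, 7, lying between about 16 kb before and 6 kb after its start. The 2 broad regions with most signal did not differ between groups beyond their spread. The region over the start (chr10:117708795-117712274) held 1869 and 1969 with FGF-2 and 2339 and 1826 with serum, and its log2 difference was -0.11 ± 0.21 (limma Benjamini-Hochberg adjusted p = 0.834). It was called lower in limma with TMM scaling (-0.24, adjusted p = 0.035). A domain of 8690 bases upstream (chr10:117714046-117722735, at -3288 bases from the start) held 3993 and 3778 with FGF-2 and 4039 and 3261 with serum. Its groups overlapped (log2 difference 0.10 ± 0.21, limma adjusted p = 0.845).

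Of the 5 weaker regions of Mdm2, 3 were higher with FGF-2 and 2 did not pass. The region annotated as 5' UTR and 4080 bases after a start (chr10:117704479-117705948) held 216 and 131 with FGF-2 and 67.2 and 76.9 with serum. Its log2 difference was 1.21 ± 0.27 (limma Benjamini-Hochberg adjusted p = 0.000213). An intergenic region at -12110 bases from the start (chr10:117722868-117723629) held 119 and 52.0 with FGF-2 and 29.5 and 29.3 with serum. The difference there was 1.39 ± 0.33 (limma adjusted p = 0.00043), and in the authors' peak lists it held a peak in both FGF-2 libraries and in neither serum library. In FGF-2 library 2 that peak had a fold of 4.06, and 3.99% of the library's peaks had a lower one. The lists held 44340 and 41975 peaks with serum and 50317 and 46712 with FGF-2. The inputs of serum libraries 1 and 2 held 15672630 and 110273836 fragments, against 12241177 and 12576377 for the FGF-2 libraries. In the authors' deposited table both regions passed, with log2 folds of 1.27 (FDR 0.000853) and 1.54 (FDR 0.00714). The outermost region, at -15100 bases (chr10:117725858-117726623), held 76.1 and 42.0 with FGF-2 and 25.8 and 33.4 with serum (0.92 ± 0.34, limma adjusted p = 0.0459). That one did not pass in the authors' table (FDR 0.156). FGF-2 library 1 was the highest library in all 3 regions. Without it the log2 differences were 0.86, 0.80 and 0.50, and none of the 3 passed (limma adjusted p = 0.309, 0.414 and 0.732). The 2 that did not pass overlapped between groups. The one 1439 bases after a start (chr10:117706130-117708589) held 330 and 204 with FGF-2 and 299 and 252 with serum (-0.08 ± 0.25, limma adjusted p = 0.897). The one at -14462 bases (chr10:117725220-117725700) held 78.9 and 15 with FGF-2 and 15.7 and 19.2 with serum (0.96 ± 0.41, limma adjusted p = 0.092), so its FGF-2 libraries lay on either side of the serum libraries.

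**Figure D2:**
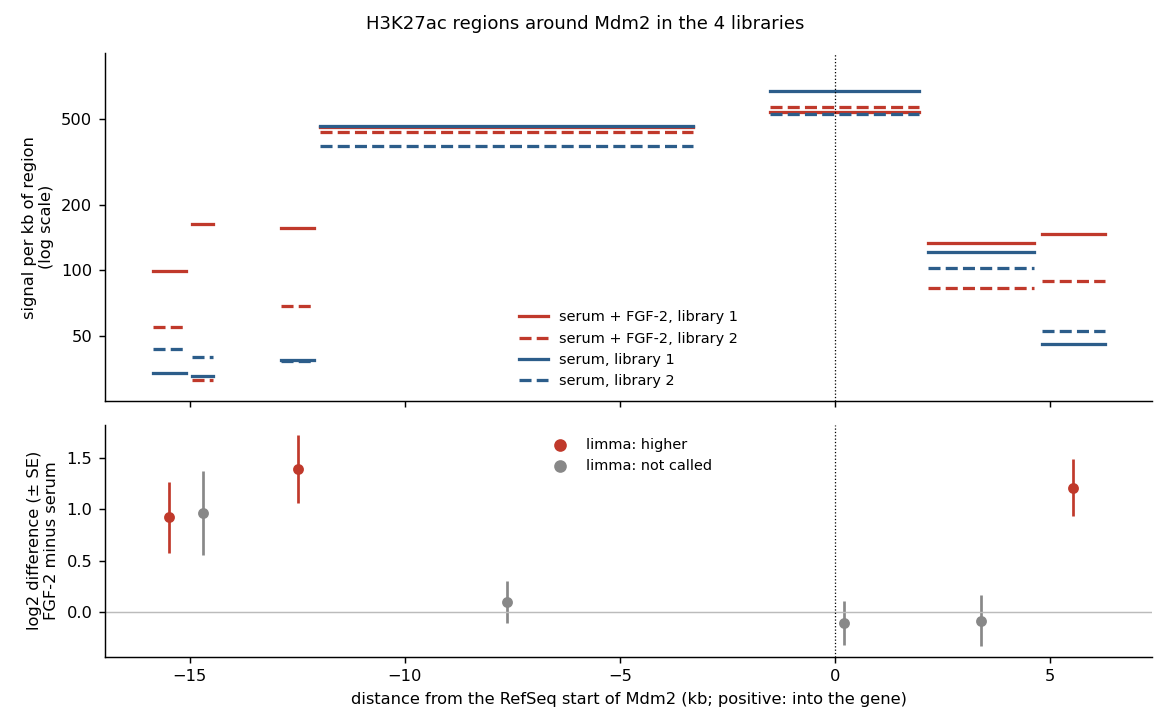
Upper panel: H3K27ac signal per kb of region (log axis) of the 7 regions around Mdm2, against distance from its RefSeq start in kb, with red lines for the 2 FGF-2 libraries and blue lines for the 2 serum libraries. Lower panel: log2 difference, FGF-2 minus serum, with its SE. The strong regions at the start and upstream lie near 0, while outer regions on both sides lie near 1, with FGF-2 library 1 highest in those that passed.

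Mdm4, the other p53 inhibitor, had RNA that did not pass in either direction. Its level (chr1:132986105-133030587) was 68.2, 63.9 and 57.0 CPM in FGF-2 libraries 1 to 3, against 59.4, 68.5 and 70.7 CPM in serum libraries 1 to 3. The groups overlapped, and the log2 fold change was -0.07 ± 0.12 (edgeR Benjamini-Hochberg adjusted p = 0.671). RefSeq annotates Gm29257 and Gm41953 over Mdm4, and how shared reads were counted is not given in the sources used here. Scaled by library totals alone it was -0.40 (edgeR adjusted p = 0.0182), close to the all-gene median in that scaling. H3K27ac at an internal start (chr1:133024062-133026663) was 297 and 314 with FGF-2 and 352 and 270 with serum, which overlapped (log2 difference -0.01 ± 0.25, limma adjusted p = 0.985). A weak region 4499 bases after that start (chr1:133019429-133020917, 5' UTR) was lower, at 25.7 and 21.0 with FGF-2 and 70.9 and 49.3 with serum. Its log2 difference was -1.31 ± 0.35 (limma Benjamini-Hochberg adjusted p = 0.00284), and the call was lost without FGF-2 library 2 (-1.17, adjusted p = 0.0939) or serum library 1 (-1.05, adjusted p = 0.0722).

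Ccng1 encodes cyclin G1, a p53 target that brings a phosphatase to Mdm2. Its level (chr11:40748552-40755309) was 124, 125 and 257.5 CPM in FGF-2 libraries 1 to 3, against 207, 182 and 274 CPM in serum libraries 1 to 3. Library 3 was the highest of each group, and the groups overlapped through it alone. The log2 fold change of -0.39 ± 0.32 missed the threshold (edgeR Benjamini-Hochberg adjusted p = 0.348). Without FGF-2 library 3 it was -0.82 and passed (edgeR adjusted p = 0.00584). Libraries of number 3 were also the shallowest of each group, and the labels do not say that a number marks a shared batch. With the replicate number as a block the value was -0.45 and passed (edgeR adjusted p = 0.0177).

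H3K27ac at Ccng1 was clearer than its RNA. The region just before the start (chr11:40755472-40756339) held 22.8 and 23.0 with FGF-2 and 78.3 and 53.5 with serum. The log2 difference was -1.46 ± 0.35 (limma Benjamini-Hochberg adjusted p = 0.000584), and the authors' deposited table also placed this region among those lower with FGF-2 (log2 fold -1.52, FDR 0.00891). It includes 10 of the 20 bases of the full p53 site printed above, which lies at chr11:40755462-40755481 on its gene-side edge. The region on the gene side of the start (chr11:40754527-40755278) held 76.1 and 66.0 with FGF-2 and 92.1 and 81.1 with serum, and did not pass (-0.28 ± 0.29, limma adjusted p = 0.615).

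Sesn1 and Trp53inp1 had the largest RNA decreases of the set. Sesn1 encodes sestrin 1, which restrains the growth-promoting kinase complex mTORC1. Its level (chr10:41810574-41908436) was 4.97, 4.68 and 4.71 CPM in FGF-2 libraries 1 to 3, against 16.4, 17.7 and 16.6 CPM in serum libraries 1 to 3. The groups were far apart and each was tight. The means were 4.79 ± 0.16 CPM with FGF-2 and 16.9 ± 0.67 CPM with serum (SD, n = 3 each), so the log2 fold change was -1.82 ± 0.16 (edgeR Benjamini-Hochberg adjusted p = 2.82e-05). Of all tested genes, 1.89% had a lower log2 fold change. None of its 6 H3K27ac regions passed in limma, with 0 at an unadjusted p below 0.05, and 0 passed in edgeR on recovered reads or by the authors' FDR. The one at an internal start (chr10:41887405-41888218) held 78.9 and 121 with FGF-2 and 146 and 105 with serum, which overlapped (log2 difference -0.34 ± 0.27, limma Benjamini-Hochberg adjusted p = 0.477). The other 5 lay in introns or an exon and had limma log2 differences from -1.0 to 0.64. Their mean signals were 6.73 to 125 with FGF-2 and 5.56 to 137 with serum, so the weakest hold few reads.

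Trp53inp1 encodes a p53-induced nuclear protein that also acts in autophagy. Its level (chr4:11156441-11174379) was 4.88, 4.50 and 5.98 CPM in FGF-2 libraries 1 to 3, against 23.0, 29.9 and 26.1 CPM in serum libraries 1 to 3. Every FGF-2 library was far below every serum library. The means were 5.12 ± 0.77 CPM with FGF-2 and 26.3 ± 3.44 CPM with serum (SD, n = 3 each), so the log2 fold change was -2.39 ± 0.17 (edgeR Benjamini-Hochberg adjusted p = 1.31e-05). It was the 67th most lowered of all genes tested. Its 1 region, at the start (chr4:11155378-11157100), held 150 and 159 with FGF-2 and 241 and 197 with serum. These did not overlap, but the log2 difference of -0.49 ± 0.26 did not pass (limma Benjamini-Hochberg adjusted p = 0.199). It passed with TMM scaling of the regions (-0.63, limma adjusted p = 0.0113) but not with the replicate number as a block (limma adjusted p = 0.434). The log2 difference was -0.64 without serum library 2 and -0.35 without serum library 1.

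Zmat3, a zinc-finger protein that binds RNA and is a p53 target, also fell. Its level (chr3:32334792-32365665) was 55.4, 55.0 and 53.1 CPM in FGF-2 libraries 1 to 3, against 105, 99.9 and 128 CPM in serum libraries 1 to 3. The groups were apart. The means were 54.5 ± 1.25 CPM with FGF-2 and 111 ± 14.9 CPM with serum (SD, n = 3 each), so the log2 fold change was -1.03 ± 0.12 (edgeR Benjamini-Hochberg adjusted p = 0.000137). RefSeq annotates another gene that overlaps Zmat3, and the strand setting of the counting is not given in the sources used here. Its start region (chr3:32363576-32366278) held 204 and 233 H3K27ac signal with FGF-2 and 401 and 292 with serum. Both FGF-2 libraries were lower, and the log2 difference of -0.65 ± 0.25 just missed the threshold (limma Benjamini-Hochberg adjusted p = 0.0555). It passed in the authors' deposited table (log2 fold -0.66, FDR 0.0383) and with TMM scaling of the regions (-0.78, limma adjusted p = 0.00303). It did not pass in edgeR on recovered reads (adjusted p = 0.0504) or with the replicate number as a block (limma adjusted p = 0.236). The 2 regions about 30 kb upstream had limma log2 differences of 0.23 and 0.05 and did not pass (limma adjusted p = 0.644 and 0.94).

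Gadd45a and Perp could not be tested in RNA. Gadd45a, a growth-arrest and DNA-repair protein, had 3, 4 and 3 counts in FGF-2 libraries 1 to 3, against 4, 3 and 0 counts in serum libraries 1 to 3. Perp, a membrane protein of desmosomes, had 0 counts in each FGF-2 library, against 1, 0 and 0 counts in serum libraries 1 to 3. A library with 0 counts allows a level of up to 0.265 to 0.543 CPM with FGF-2 and 0.287 to 0.498 CPM with serum (3 counts on the TMM-scaled CPM scale, counting error only). A difference for these genes was not detectable at these counts. RefSeq annotates E230016M11Rik over Gadd45a, and how reads shared between them were counted is not given in the sources used here.

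Gadd45a nevertheless had 4 H3K27ac regions. The 2 at its promoter held 45.7 and 32.0 (chr6:67035776-67036483) and 24.7 and 25.0 (chr6:67036665-67037199) with FGF-2, against 55.3 and 51.0 and 35.0 and 26.7 with serum. Neither passed (limma Benjamini-Hochberg adjusted p = 0.412 and 0.731). Of the distal regions, the one at -64701 bases from the start (chr6:67102108-67103596) held 170 and 99 with FGF-2 and 61.7 and 86.9 with serum (log2 difference 0.82 ± 0.28, limma adjusted p = 0.0255). The one at -67677 bases (chr6:67105084-67105426) held 19 and 19 with FGF-2 and 0.92, which is the authors' value for at most 1 read, and 10.0 with serum (limma adjusted p = 0.0122). Both distal regions also passed in edgeR on recovered reads (adjusted p = 0.019 and 0.034). With the replicate number as a block only the second passed (limma adjusted p = 0.104 and 0.0239). The authors tied these distal regions to Gadd45a as the nearest gene, and neither passed in their table (FDR 0.0745 and 0.218), with TMM scaling (limma adjusted p = 0.144 and 0.126), without FGF-2 library 1 (0.764 and 0.226) or FGF-2 library 2 (0.0658 and 0.203), or without serum library 1 (0.0894 and 0.339).

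Aen, a nuclease that p53 induces in apoptosis, did not pass. Its level (chr7:78895927-78911209) was 88.7, 81.3 and 89.4 CPM in FGF-2 libraries 1 to 3, against 67.7, 71.4 and 87.8 CPM in serum libraries 1 to 3. The groups overlapped through serum library 3. The log2 fold change was 0.20 ± 0.12 (edgeR Benjamini-Hochberg adjusted p = 0.21), and without serum library 3 it was 0.31 and passed (edgeR adjusted p = 0.0398). Its start region (chr7:78895906-78897415) held 231 and 232 H3K27ac signal with FGF-2 and 232 and 171 with serum, which overlapped (0.22 ± 0.25, limma adjusted p = 0.676). The weak region at -228 bases held 31.4 and 30.0 with FGF-2 and 33.2 and 31.8 with serum (-0.08 ± 0.37, limma adjusted p = 0.939).

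Counted together, 5 of the 28 regions were higher and 2 lower with FGF-2 (limma Benjamini-Hochberg adjusted p below 0.05), against 12.6% and 3.73% of all 40772 regions. All 5 higher ones were tied to Mdm2 or Gadd45a, and none of them lay within 3 kb of a start. The authors' FDR called 2 higher and 3 lower, against 8.33% and 1.64% of all regions. Both FGF-2 libraries stood above both serum libraries in 5 of the 28 and below them in 10, where 33.6% and 18% of all regions did. The median log2 difference of the 28 was -0.09, and that of all regions 0.11. The split differed between scalings. With TMM scaling, under which the all-region median was -0.02, limma called 2 of the 28 higher and 6 lower. In that fit 3986 of all 40772 regions were higher and 2487 lower. The split also differed when single libraries were left out, which leaves 1 library in a group. The all-region median was then 0.26 without serum library 1 and -0.05 without serum library 2. What set the split was not tested.

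**Figure D3:**
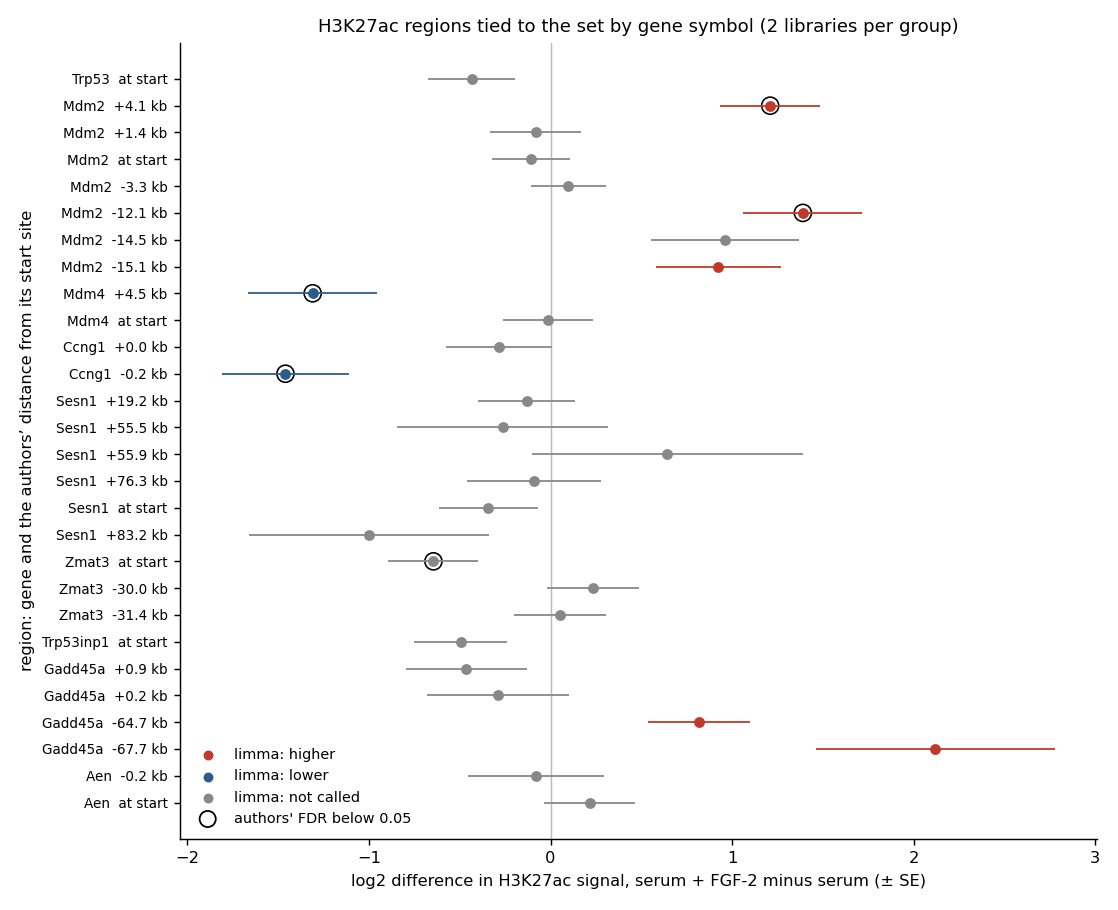
Log2 difference in H3K27ac signal, FGF-2 minus serum, with its SE (horizontal axis) for the 28 regions, ordered by gene and labelled with the authors' distance from the start in kb. Red and blue points passed limma's adjusted p of 0.05 as higher and lower, grey points did not, and rings mark an authors' FDR below 0.05. Red points belong to outer regions of Mdm2 and Gadd45a, and blue points to Mdm4 and Ccng1.

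The start regions of 4 genes whose RNA fell can be set beside the RNA. RNA of Trp53, Zmat3, Trp53inp1 and Sesn1 had log2 fold changes of -0.63, -1.03, -2.39 and -1.82, and H3K27ac at their starts had limma log2 differences of -0.43, -0.65, -0.49 and -0.34. All 4 differences in H3K27ac were below 0. None passed in limma, where 1 (Zmat3) had an unadjusted p below 0.05, 0 passed in edgeR on recovered reads and 1 (Zmat3) by the authors' FDR. With TMM scaling of the regions, 3 of the 4 (Trp53, Zmat3 and Trp53inp1) passed in limma and 3 in edgeR on recovered reads. Over all 40772 regions, limma called 2487 lower with that scaling and edgeR 2726. The region nearest a start was also below 0 in genes whose RNA was not called lower. These were Mdm2 (-0.11), Mdm4 (-0.01) and Ccng1 (-0.28). Gadd45a, not tested in RNA, had -0.29, and Aen had 0.22. With TMM scaling the start region of Mdm2, a gene whose RNA rose, also passed as lower in limma (-0.24, adjusted p = 0.035). It did not pass in edgeR on recovered reads with that scaling (adjusted p = 0.0802).

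Other genes of the pathway were grouped in 4 lists, whose counts stand beside the 22.1% of all tested genes that rose and the 24.2% that fell, with a median of -0.02. Of 25 regulators of p53, 23 were tested, 5 rose and 7 fell, with a median log2 fold change of 0.12, and these shares were near those of all tested genes. Without serum library 2 the number that rose was 2, and without FGF-2 library 2 it was 3. Hipk2, a kinase that phosphorylates p53, averaged 154 ± 25.7 CPM with FGF-2 and 64.6 ± 16.3 CPM with serum (log2 fold change 1.27 ± 0.19). Rchy1, a ubiquitin ligase for p53, had a log2 fold change of 0.71, and Npm1, a nucleolar chaperone, 0.64 (edgeR Benjamini-Hochberg adjusted p = 0.00319 and 0.0138). The damage-response kinases Atm and Chek2 fell, by 1.09 and 1.06 on the log2 scale. Pml, the scaffold of nuclear bodies that hold p53 cofactors, averaged 13.2 ± 2.40 CPM with FGF-2 and 62.1 ± 6.47 CPM with serum (-2.21 ± 0.15, edgeR adjusted p = 9.62e-06). Cdkn2a, whose product Arf inhibits Mdm2, had 0 counts in all 6 libraries.

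Of 15 targets linked to cell death, 10 were tested, 0 rose in edgeR and 4 fell (median -0.23), beside 22.1% and 24.2% of all tested genes. In edgeR 1 (Eda2r) was higher at an unadjusted p below 0.05, 1 rose in DESeq2 and 1 in limma-voom, and 2 rose without serum library 3. Pidd1, a death-domain scaffold, averaged 10.5 ± 1.79 CPM with FGF-2 and 25.4 ± 2.21 CPM with serum (log2 fold change -1.25 ± 0.16). Bbc3, the death activator Puma, had -1.14 and Ei24, a protein of the endoplasmic reticulum, -0.71 (edgeR Benjamini-Hochberg adjusted p = 0.00138 and 0.000657). Eda2r, a death-domain receptor, was highest in the list at 1.08 without passing (edgeR adjusted p = 0.0546).

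Of 35 other p53 targets, 27 were tested, 5 rose and 12 fell (median -0.29), beside 22.1% and 24.2% of all tested genes. Without serum library 3, 8 rose. The 5 that rose were Cdkn1a, Btg2, Cgref1, the kinase gene Plk3 (log2 fold change 1.57) and the growth factor gene Tgfa (0.80). Cdkn1a, which encodes the CDK inhibitor p21, was at 873, 966 and 1516 CPM in FGF-2 libraries 1 to 3, against 203, 177 and 358 CPM in serum libraries 1 to 3 (log2 fold change 2.19 ± 0.33). Btg2, an antiproliferative cofactor, averaged 122.5 ± 24.8 CPM with FGF-2 and 35.6 ± 5.11 CPM with serum (1.79 ± 0.16). Cgref1, a secreted growth regulator, was at 16.6, 11.2 and 19.9 CPM in FGF-2 libraries 1 to 3, against 0.478, 1.92 and 4.32 CPM in serum libraries 1 to 3 (2.97 ± 0.56). Library groups were apart for these 3. Among those that fell, Gtse1, Psrc1 and Ckap2 encode proteins of microtubules and mitosis, with log2 fold changes of -2.30, -2.15 and -1.23 (edgeR Benjamini-Hochberg adjusted p = 1.47e-05, 5.91e-06 and 0.000207).

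Of 14 relatives of the set, 11 were tested, 3 rose and 2 fell (median 0.10), near the 22.1% and 24.2% of all tested genes, and 1 fell without FGF-2 library 1 or 2 or serum library 1 or 2. Cyclin G2 (Ccng2) averaged 19.2 ± 10.3 CPM with FGF-2 and 2.06 ± 0.99 CPM with serum (log2 fold change 3.16 ± 0.49, edgeR Benjamini-Hochberg adjusted p = 0.00167), while Ccng1 did not pass. Sesn2 had 62.6 CPM with FGF-2 and 63.5 CPM with serum (-0.02, edgeR adjusted p = 0.939), and Sesn3 had -0.42 (edgeR adjusted p = 0.168), beside -1.82 for Sesn1. Trp53inp2 fell by 0.52 on the log2 scale, beside -2.39 for Trp53inp1. Gadd45g rose to 56.5 ± 9.36 CPM with FGF-2, against 34.5 ± 9.24 CPM with serum, and Isg20l2, a nucleolar exonuclease related to Aen, had a log2 fold change of 0.91 ± 0.12. Differences between relatives were not tested.

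**Figure D4:**
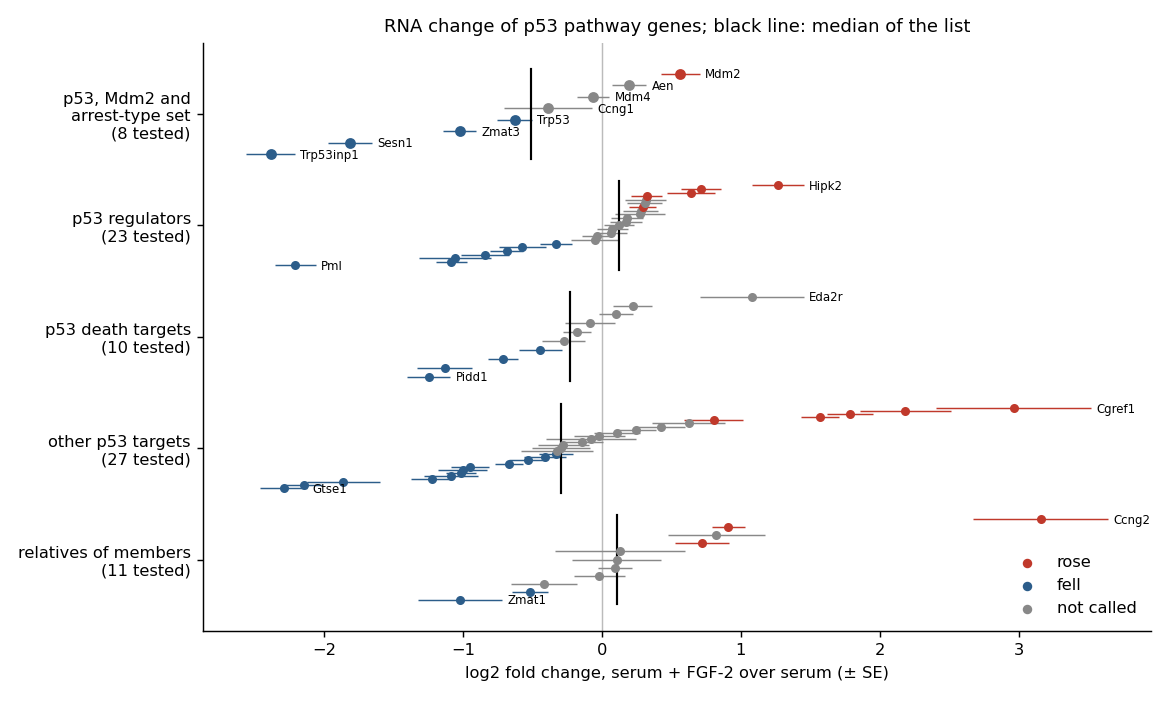
Log2 fold change in RNA, FGF-2 over serum, with its SE (horizontal axis) for every tested gene of the set and of 4 lists of the pathway, with the list's median as a black line. Red genes rose and blue genes fell at an edgeR adjusted p below 0.05. Each list spans both sides of 0, and the medians run from -0.51 for the set to 0.12 for the regulators.

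Over the 6 RNA libraries, 6376 genes that averaged 20 CPM or more were ranked by how near their profile (log2 CPM minus the serum mean) was to that of Mdm2. The 3 nearest were Ttc39c, Mob1b, a partner of Hippo pathway kinases, and Med14, a Mediator subunit, at Euclidean distances of 0.10, 0.11 and 0.12 on the log2 scale. Their log2 fold changes were 0.60, 0.59 and 0.58, beside 0.56 for Mdm2. In all 3, as in Mdm2, library 3 was the highest of each group. Like fold changes and a like order of libraries follow from ranking by nearness to Mdm2, and are no separate result.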

How the data were processed

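Per the submitters' processing notes, reads were handled with STAR 2.5.2a on mm10, HTSeq 0.10.0, MACS2 2.2.6, DiffBind and ChIPseeker. The deposited RNA files hold raw counts per gene. Rows that name no gene (37% to 43.24% of reads) were left out. The authors' region table holds scaled signal per library, a log2 fold, p-values and an FDR. Its values were whole multiples of 1 read in at least 99.997547% of entries (tolerance 0.02 reads). Per the file headers, the deposited peak lists, called per library against inputs, give pileup signal, fold (a ratio) and −log10 p and q values.

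RNA was tested with edgeR 4.0.16 (quasi-likelihood, TMM scaling, filterByExpr) in R 4.3.3. Regions were tested with limma 3.58.1 on log2(signal + 1). P-values were Benjamini-Hochberg adjusted over all genes or regions. Both tests were checked on simulated data. With 10308 genes, 76.8% of 2-fold and 98% of 4-fold changes in RNA were called, and with 40772 regions 24% and 72% of those in H3K27ac. Replicates differed by more than counting noise (chi-square per degree of freedom 9.06 to 24).

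The genes and lists were chosen with earlier results of these data known. Genes of lists were named by rule: up to 3 in each direction with the largest change among those that passed, with a mean of at least 5 CPM. Plk3, Tgfa, Sesn2, Sesn3, Eda2r and Cdkn2a were named outside this rule, after their values were seen. Alternatives used other scalings, filters, thresholds, tools and a replicate block. After the data were seen, edgeR on recovered reads with TMM scaling, limma with TMM scaling and a crossed block were added. Input libraries entered only through the authors' peak lists. Coordinates are 1-based, mm10.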

Additional observations from a re-analysis of the deposited data

How the results depend on the processing

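Trp53, Sesn1, Zmat3 and Trp53inp1 kept their direction and call under all alternatives, except Trp53 where an absolute log2 fold change of 1 was required. Leaving out 1 library at a time gave 1 to 2 genes of the set that rose and 4 to 5 that fell. None rose with library totals only or with a log2 fold change of at least 1. For the regulators, those that rose numbered 3 under upper-quartile scaling, 2 under library totals, 2 at an adjusted p below 0.01, 1 with a log2 fold change of at least 1 and 2 to 5 without single libraries, and 3 fell at that fold. Of the death targets, 1 rose with DESeq2, limma-voom, a 5 CPM filter or the replicate block, 0 to 2 rose and 3 to 4 fell without single libraries, and 2 fell at that fold. Of the other targets 4 to 8 rose without single libraries, and 7 fell at that fold. Of the relatives 1 rose at that fold, and 1 fell with DESeq2, the 5 CPM filter, an adjusted p below 0.01 or that fold, or 1 to 2 without single libraries. Over all genes, 2295 rose and 2512 fell: 1035 and 4675 with library totals, 1441 and 1618 at 0.01, 707 and 940 at that fold, and 1624 to 2417 and 1892 to 2540 without single libraries. The share of called genes that rose was 47.7%, against 32.7% under upper-quartile scaling and 18.1% under library totals.

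Of the 28 regions, higher calls numbered 2 by the authors' FDR, 2 in edgeR on recovered reads or limma with TMM scaling, 0 among regions within 3 kb of a start and 0 to 5 without single libraries. Lower calls numbered 5 in that edgeR fit, 6 in that limma fit, 1 within 3 kb and 1 to 5 without single libraries. Over all regions, 5145 were higher and 1521 lower: 3398 and 670 by the authors' FDR, 327 and 98 within 3 kb, 2726 lower in edgeR and 2487 in limma with TMM scaling, and 1191 to 6695 and 552 to 2442 without single libraries. Among the fits that left out 1 library, the one without FGF-2 library 1 had the fewest calls. Serum library 2 had the lowest share of fragments in regions (28.0%). The cause of these shifts was not tested.

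Deviations of same-numbered RNA libraries correlated at -0.114, 0.0588 and 0.385, while FGF-2 library 1 with serum library 2 gave 0.401 and FGF-2 library 2 with serum library 1 gave 0.33. Not every same-numbered pair was above 0.1 and the labels tie none together, so the numbers were not taken as pairs. With the replicate block 3 of the 28 regions were higher and 947 regions in all were lower. In H3K27ac the correlation was -0.217, and with crossed pairing 5 of the 28 were higher and 3 lower. Weak regions and genes near 0 counts are limited by depth.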

Other observations

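The authors' peak lists give a pileup and a fold over local background for each peak, from which that background can be computed. At the Mdm2 regions it was 3.80 to 7.03 reads over 22 library and region pairs, or 3.98 to 6.80 times the median over all peaks of the same library. At the other genes of the set it was 0.946 to 3 times that median over 75 pairs. The raised values appeared in all 4 libraries, FGF-2 and serum alike. Of 2031 windows of 1000000 bases that held a peak, 10 had at least 10 peaks at 3 or more times the library median in every library. Of these, 7 were on chromosome 10, including the window that holds Mdm2, where 25 to 45 peaks per library were raised, and 3 were on chromosome 6, beginning at bases 145000001, 146000001 and 148000001, with medians of 19.5 to 31.3 times that of the library. On chromosome 10 the median in the window that holds Mdm2 was 3.86 to 4.44 times that of the library. In the windows beginning at bases 122000001 and 128000001 it was only 1.05 to 1.62 and 1.11 to 1.51 times. The copy number of these stretches was not measured.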
